A study of Caenorhabditis elegans with 2 samples.

Results

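Molecular chaperone genes were examined in a map of ZAG-1 binding in Caenorhabditis elegans larvae at the first larval stage (L1). They were taken by symbol, as the protein-coding genes of the WBcel235 assembly whose symbol starts with hsp-, dnj-, cct- or pfd-. This gave 65 genes of 19973 protein-coding genes, made up of 22 hsp-, 29 dnj-, 8 cct- and 6 pfd- genes. They carry 63 distinct symbols, because hsp-16.1 and hsp-16.48 are each the symbol of 2 genes. By what is generally known of their expression, 22 were listed as constitutive and 10 as stress-induced, and 33 were placed in neither list. The stress-induced list holds hsp-70, hsp-4, hsp-6, hsp-60 and the hsp-16 genes. Expression was not measured here, so a gene of that list may also be on without stress.

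ZAG-1 is the zinc finger homeodomain protein of the ZEB class in this worm and is a regulator of how neurons take on their identity and extend axons. Binding was measured by chromatin immunoprecipitation and sequencing of ZAG-1 fused to eGFP. There were 2 biological replicates in 1 group, each of whole L1 larvae of mixed sex from strain OP83, whose genotype is unc-119(ed3) III with the transgene wgIs83, and the labels give no exact age. No control samples or untagged animals were used here, so the background of every count below is the same count over all protein-coding genes. The tagged protein comes from an inserted transgene and both replicates carry the same mutation and insertion. Whole larvae were used, so binding in few cells and weak binding in many cells cannot be told apart, and the cells in which a chaperone gene was bound are not known.

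Chaperones help other proteins to fold. Hsp70 proteins bind unfolded clients with the help of J-domain partners (dnj- genes), Hsp90 proteins act on clients that are nearly folded, prefoldin (pfd- genes) hands actin and tubulin to the ring-shaped CCT chaperonin (cct- genes), and small heat shock proteins hold unfolded proteins in solution. Some of these genes are on in nearly every cell at all times, while others are nearly silent until heat or damage to a compartment switches them on, often through HSF-1 and the heat shock elements it binds.

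The deposited data were ranked peak lists on genome build ce11. The pooled list, called by the authors on both replicates together, has 30000 entries and holds background as well as peaks. The optimal list has 478 peaks, which were the 478 top entries of the pooled list by signal, with signals between 29.6 and 180 and a median of 38.1. Rank 1 is the highest signal of a list. The signal is the authors' own enrichment value, on an unstated scale, and it reached 61.8 in the list of replicate 1 and 115.3 in that of replicate 2, so replicates are compared below by rank. Read counts were not part of the lists, so the depth behind each value is unknown and no interval was computed.

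An optimal peak lay within 1000 bp of the start of 10 chaperone genes, and the DNA under 8 of these peaks is shown because the heat shock element cores within them recur in the results. They are the 6 of highest signal, followed by cct-8 and hsp-60, which hold cores and were added after their values were seen. The peaks at hsp-12.3, of higher signal than hsp-60, and at hsp-25 hold no core and are not printed. Each is the stretch within 100 bp of the summit that overlaps no annotated exon, read from the WBcel235 genome (RefSeq), which is the build ce11, and written 5′ to 3′ on the strand of the chaperone gene. Capitals mark the repeat GAGAGA, the word CGTCTC or a heat shock element core (TTCNNGAA or GAANNTTC) on either strand. The stretches are chrIV:11149771-11149905 (plus strand), chrV:14685718-14685918 (plus strand), chrIV:17278503-17278665 (plus strand), chrII:8185094-8185294 (plus strand), chrV:1871808-1871979 (plus strand), chrIII:8447096-8447281 (minus strand), chrIV:1094222-1094422 (minus strand) and chrIII:1619014-1619214 (plus strand), in the order printed.
pfd-1: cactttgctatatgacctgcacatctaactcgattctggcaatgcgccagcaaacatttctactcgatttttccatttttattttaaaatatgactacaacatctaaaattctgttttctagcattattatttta
hsp-90: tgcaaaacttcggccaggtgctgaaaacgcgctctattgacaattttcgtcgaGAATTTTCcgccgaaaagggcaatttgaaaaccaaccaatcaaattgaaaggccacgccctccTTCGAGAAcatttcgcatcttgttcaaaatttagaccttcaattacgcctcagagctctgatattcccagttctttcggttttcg
hsp-1: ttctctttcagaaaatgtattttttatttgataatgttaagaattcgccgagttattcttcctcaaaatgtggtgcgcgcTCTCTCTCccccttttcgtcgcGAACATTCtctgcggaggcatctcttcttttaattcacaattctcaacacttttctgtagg
cct-1: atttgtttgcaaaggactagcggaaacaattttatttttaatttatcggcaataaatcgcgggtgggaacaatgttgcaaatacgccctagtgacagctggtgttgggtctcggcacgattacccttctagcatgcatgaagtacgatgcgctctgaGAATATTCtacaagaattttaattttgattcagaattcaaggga
cct-7: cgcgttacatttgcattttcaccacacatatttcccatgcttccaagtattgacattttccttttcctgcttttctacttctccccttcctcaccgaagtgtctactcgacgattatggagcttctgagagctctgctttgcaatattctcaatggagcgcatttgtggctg
hsp-110: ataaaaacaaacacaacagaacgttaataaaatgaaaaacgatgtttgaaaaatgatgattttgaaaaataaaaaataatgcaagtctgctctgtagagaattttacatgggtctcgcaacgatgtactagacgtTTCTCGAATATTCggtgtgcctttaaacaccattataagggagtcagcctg
cct-8: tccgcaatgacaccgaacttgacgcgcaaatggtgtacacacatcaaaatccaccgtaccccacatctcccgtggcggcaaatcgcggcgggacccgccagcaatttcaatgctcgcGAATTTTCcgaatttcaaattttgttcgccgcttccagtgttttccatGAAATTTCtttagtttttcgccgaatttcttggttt
hsp-60: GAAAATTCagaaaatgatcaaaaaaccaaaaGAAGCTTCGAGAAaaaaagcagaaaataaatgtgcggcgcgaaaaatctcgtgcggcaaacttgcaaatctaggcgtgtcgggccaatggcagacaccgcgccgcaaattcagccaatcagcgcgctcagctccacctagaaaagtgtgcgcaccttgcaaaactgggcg
In the hsp-110 stretch and in the longer run of capitals of the hsp-60 stretch, adjoining heat shock element cores overlap. The pfd-1 and cct-7 stretches hold no capitals. The CGTCTC match counted for the pfd-1 peak lies within 100 bp of the summit but outside the stretch printed.

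Few chaperone genes had an optimal peak when each peak was given to 1 gene, and far more did when a peak could count for every gene that starts beside it. With each summit given to the gene whose transcript start was nearest, up to 5000 bp away, 2 of the 65 chaperone genes (3.08%) had an optimal peak, hsp-1 and hsp-25, against 2.18% of all protein-coding genes (435 of 19973). This share is near the background. The hsp-1 summit lay within 500 bp of a start, as did 50.4% of all optimal summits, and the hsp-25 summit did not. By class it was 1 of 22 constitutive genes (4.55%), 0 of 10 stress-induced genes and 1 of 33 genes in neither list.

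When a peak counted for any gene with a start within 1000 bp of its summit, 10 of 65 chaperone genes (15.4%) had an optimal peak, against 2.17% of all protein-coding genes (433 genes), a share that would give 1.41 chaperone genes. The 10 genes were pfd-1, hsp-90, hsp-1, cct-1, cct-7, hsp-110, cct-8, hsp-12.3, hsp-60 and hsp-25, in order of signal. Constitutive genes made up 7 of them, which is 7 of 22 (31.8%), while 1 of 10 stress-induced genes (hsp-60) and 2 of 33 other genes (hsp-12.3 and hsp-25) were among them. By family they were 6 of 22 hsp-, 3 of 8 cct-, 1 of 6 pfd- and 0 of 29 dnj- genes. Within 500 bp there were 7 of 65 (10.8%), against 1.58% of all genes, and all 7 were constitutive genes. Within 5000 bp there were 13 of 65 (20%), against 5.50% of all genes, with dnj-3, dnj-12 and hsp-12.6 added, of which dnj-12 is in the constitutive list. The limits of 1000 and 500 bp were chosen after the counts by nearest start had been seen, and no test of a share was made.

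**Figure D1:**
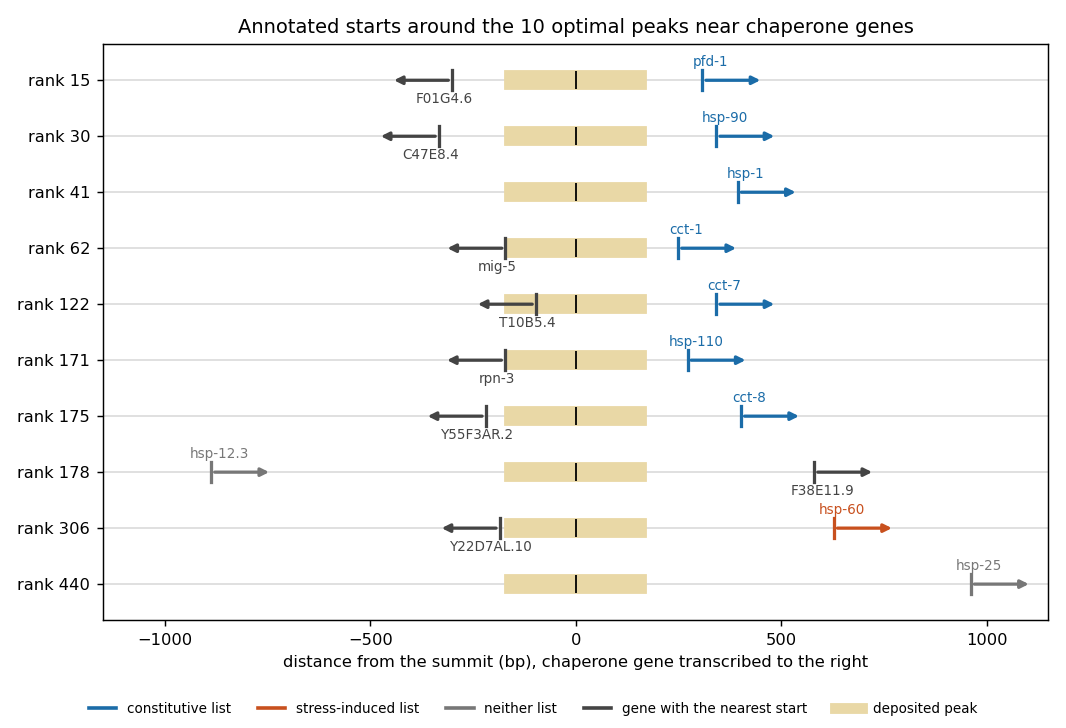
Position of annotated transcript starts around the summits of the 10 optimal peaks within 1000 bp of a chaperone gene start. The horizontal axis is distance from the summit in bp with the chaperone gene transcribed to the right, each line is 1 peak labelled by its rank in the pooled list, the shaded block is the deposited peak, and bars with arrows are starts and directions of transcription. In 7 of the 10 a second gene starts on the other side and runs the other way, closer to the summit than the chaperone gene.

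The constitutive cytosolic genes hsp-1, hsp-90 and hsp-110 each had a start within 500 bp of an optimal peak. The gene hsp-1 encodes the constitutive cytosolic Hsp70. Its peak (chrIV:17278393-17278736) had a signal of 66.0 and rank 41 in the pooled list, with a summit 394 bp upstream of the start in intergenic sequence. In replicate 1 the overlapping entry had a signal of 12.33 and rank 472, and in replicate 2 it had 52.4 and rank 20. Both ranks were within the first 478, but replicate 2 placed the peak far higher than replicate 1. The gene hsp-90 encodes the cytosolic Hsp90. Its peak (chrV:14685646-14685989) had a signal of 71.7 and rank 30, with rank 24 in replicate 1 (31.8) and rank 46 in replicate 2 (41.5). The replicates were close in rank here. The summit was 342 bp upstream of the nearest hsp-90 start, inside an intron of a longer hsp-90 transcript, and 333 bp upstream of C47E8.4, a FAM50 homolog, so the peak was assigned to C47E8.4 by a margin of a few bases. The gene hsp-110 encodes a nucleotide exchange factor that works with Hsp70. Its peak (chrIII:8447009-8447352) had a signal of 42.6 and rank 171, with rank 1228 in replicate 1 (9.73) and rank 87 in replicate 2 (35.3). Replicate 1 alone would not have placed it in its first 1000. The summit was 272 bp upstream of hsp-110 and 172 bp upstream of rpn-3, which encodes a subunit of the 26S proteasome.

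Neither gene for BiP, the Hsp70 of the endoplasmic reticulum, had an optimal peak within 5000 bp. The best entry of hsp-3, the constitutive BiP gene, had rank 1033 and a signal of 22.3 at 63 bp upstream of the start, and the overlapping entries ranked 15258 in replicate 1 and 700 in replicate 2. That of hsp-4, the BiP gene known as a reporter of the unfolded protein response, had rank 8488 and a signal of 12.2 at 898 bp upstream. The nearer and higher entry thus belonged to hsp-3.

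Of the mitochondrial chaperone genes, hsp-60, the chaperonin, was within 1000 bp of an optimal peak (chrIII:1618942-1619285) with a signal of 35.02 and rank 306. It had rank 229 in replicate 1 (15.6) and rank 366 in replicate 2 (22.5). The summit was 628 bp upstream of hsp-60 and 185 bp upstream of Y22D7AL.10, which RefSeq describes as the mitochondrial 10 kDa heat shock protein, the lid that works with this chaperonin. Both genes at this peak thus encode parts of the same folding machine, although Y22D7AL.10 carries no chaperone symbol and was not among the 65. The mitochondrial Hsp70 gene hsp-6 had an entry of rank 1621 (signal 19.3) at 444 bp upstream, with ranks 2761 in replicate 1 and 18208 in replicate 2, and that entry was assigned to another gene. The mitochondrial Hsp90 gene hsp-75 had no pooled entry within 1000 bp.

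The CCT genes, which encode the subunits of the cytosolic chaperonin, were divided. The peak at cct-1 (chrII:8185022-8185365) had a signal of 58.2 and rank 62, with rank 54 in replicate 1 (25.3) and rank 100 in replicate 2 (34.0). It was 249 bp upstream of cct-1 and 171 bp upstream of mig-5, a dishevelled homolog. The peak at cct-8 (chrIV:1094150-1094493) had a signal of 42.5 and rank 175, with rank 90 in replicate 1 (22.4) and rank 171 in replicate 2 (29.3). The replicates differed little in rank at both of these peaks. The cct-8 summit was 402 bp upstream of cct-8 and 219 bp upstream of Y55F3AR.2, which encodes a thioredoxin domain protein. The peak at cct-7 (chrV:1871732-1872075) had a signal of 48.9 and rank 122, with rank 1010 in replicate 1 (10.2) and rank 79 in replicate 2 (36.2), so its place rested more on replicate 2. It was 342 bp upstream of cct-7 and 97 bp upstream of T10B5.4. A further optimal peak of rank 179 lay 3433 bp upstream of cct-7, beside another gene, T10B5.3. The remaining 5 CCT genes had no optimal peak within 5000 bp. The best entries within 1000 bp of cct-6 and cct-2 had ranks 2406 and 5292, and cct-3, cct-4 and cct-5 had none there. An entry of rank 522 (signal 28.6) lay 2166 bp downstream of the cct-5 start, in an intron.

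Prefoldin genes ran from the strongest chaperone peak to no entry at all. The peak at pfd-1 (chrIV:11149633-11149976) had the highest signal beside any of the 65 genes, 84.9 at rank 15, with rank 2 in replicate 1 (51.1) and rank 235 in replicate 2 (26.7). Here the higher rank was in replicate 1. The summit was 308 bp upstream of pfd-1 and 301 bp upstream of F01G4.6, which encodes a mitochondrial phosphate carrier. A weaker entry of rank 1116 (signal 21.8) was its own by nearest start. It lay in an intron inside pfd-1, 64 bp upstream of an internal start of that gene. Other entries within 1000 bp ranked 543 at pfd-3, 806 at pfd-6 and 4166 at pfd-5. These lay 63, 56 and 174 bp upstream of their starts, and pfd-2 and pfd-4 had no pooled entry within 1000 bp.

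The small heat shock protein genes with an optimal peak were not the heat-inducible hsp-16 genes. The peak at hsp-25 (chrX:6040433-6040776), a small heat shock protein gene in neither list, had a signal of 30.5 and rank 440, near the lower end of the optimal list. It had rank 262 in replicate 2 (25.7), while the overlapping entry of replicate 1 had rank 8492 (5.92). Its summit lay 961 bp upstream of the hsp-25 start in an exon of the non-coding gene C09B8.12. The peak at hsp-12.3 (chrIV:9444448-9444791) had a signal of 42.2 and rank 178, with rank 255 in replicate 1 (14.8) and rank 180 in replicate 2 (28.4). Unlike the other 9, it lay downstream of the chaperone gene's start, by 887 bp and past the annotated end of that gene, and 580 bp upstream of F38E11.9.

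J-domain genes had no optimal peak within 1000 bp of a start. The share of all genes would give 0.63 of 29, so nothing is read from this. An entry of the first 2000 of the pooled list lay within that distance of 9 of the 29 (31.0%), against 7.25% of all genes. The closest to the limit was dnj-22, whose entry at 219 bp upstream had rank 489 and a signal of 29.4, with ranks 1832 in replicate 1 and 354 in replicate 2, just below the lowest optimal signal. The constitutive cytosolic dnj-13 had rank 628 (signal 26.5) at 276 bp upstream, with ranks 1153 in replicate 1 and 867 in replicate 2. The others of the 9 were dnj-16, dnj-29, dnj-28, dnj-20, dnj-9, dnj-24 and dnj-12 with ranks between 726 and 1639. At dnj-16, dnj-20, dnj-29, dnj-12 and dnj-28 the overlapping entries ranked between 6046 and 20792 in replicate 1. In replicate 2 these ranked between 549 and 1663. At dnj-24 both replicates ranked the overlapping entry low (11566 and 11953), and at dnj-9 the ranks were 1642 and 3904. The optimal peaks near dnj-3 (rank 38, at 2769 bp downstream) and dnj-12 (rank 356, at 2498 bp downstream) lay upstream of unc-76 and tmem-107, 313 and 88 bp from those starts.

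**Figure D2:**
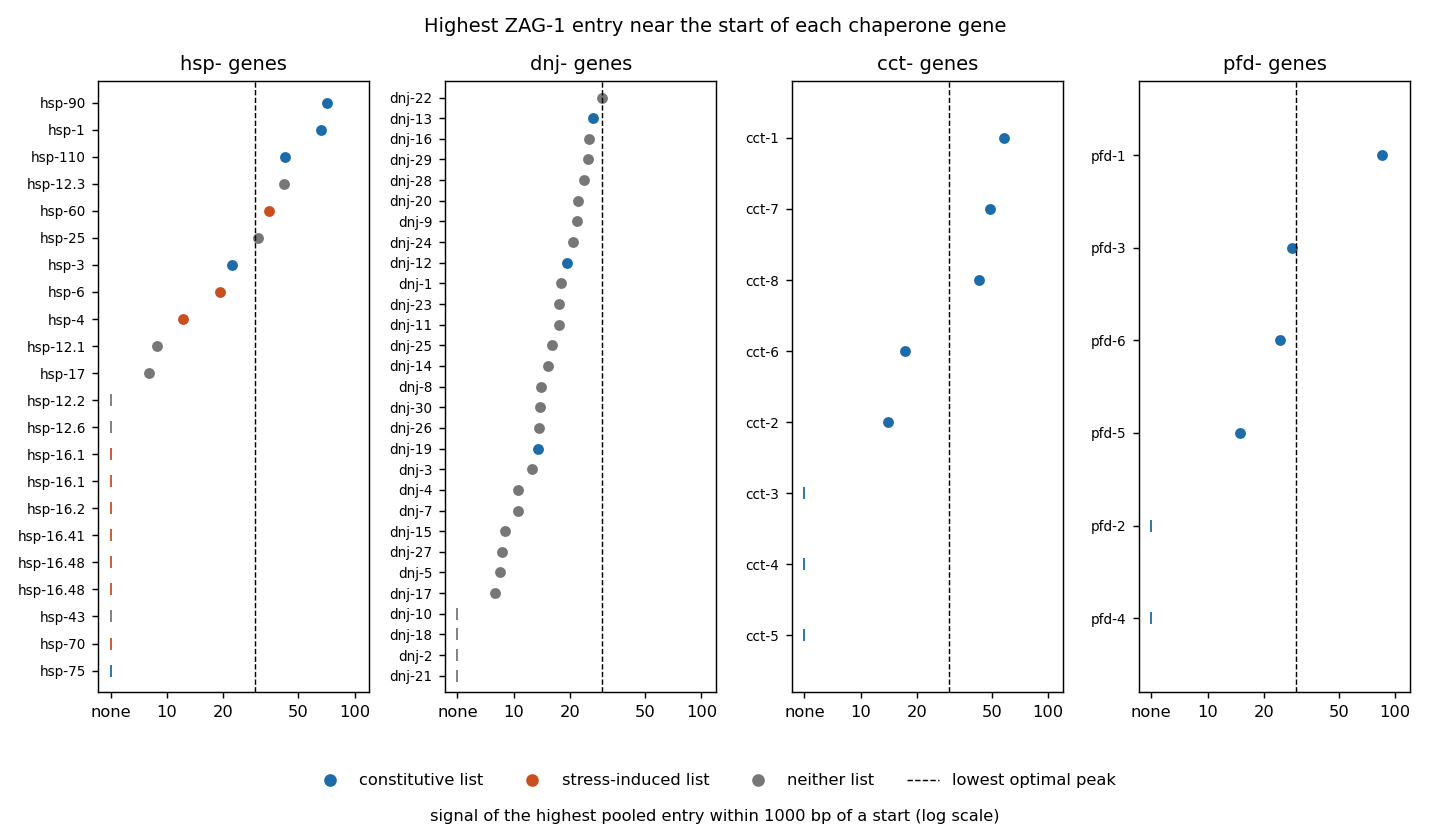
Signal of the highest pooled entry within 1000 bp of any start of each of the 65 chaperone genes, by family, on a log scale. Points are genes coloured by list, short bars at the left mark genes with no such entry, and the dashed line is the lowest signal of the optimal list, 29.6. The 7 constitutive genes to the right of the line belong to the hsp-, cct- and pfd- families. No dnj- gene lies to the right of it, where the share of all genes would give 0.63 of 29.

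By nearest start, no stress-induced gene had an entry in the first 2000 of the pooled list. The share of all genes would give 0.82 of 10. An entry at any rank was assigned to 4 of the 10 (40%), against 63.0% of all genes. These were hsp-70 (the heat-inducible Hsp70 gene) at rank 7412, hsp-4 at 8488, hsp-60 at 18487 and 1 of the hsp-16.1 genes at 29614. The median best rank of all genes with an entry was 10069, and in the pooled list hsp-70 and hsp-4 stood nearer the top than that median. Neither entry stood high in a replicate. That of hsp-70, 2419 bp upstream in a coding exon, overlapped entries of rank 22339 in replicate 1 and 28336 in replicate 2. That of hsp-4 overlapped an entry of rank 12004 in replicate 1 and none in replicate 2. The genes hsp-16.2, hsp-16.41, both hsp-16.48 genes and the other hsp-16.1 gene, which encode small heat shock proteins, had none by nearest start and none within 1000 bp of a start. Replicate 1 listed an entry of rank 27522 (signal 3.55) beside hsp-16.2 and hsp-16.41, and replicate 2 listed none there. The hsp-16.1 genes of 490 and 528 bp are identical over the whole of the shorter one, and the hsp-16.48 genes, of 487 bp each, are identical throughout, so reads from such copies cannot be told apart and their part in the missing entries was not tested.

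Over the whole pooled list, chaperone genes were reached about as often as other genes but nearer the top. A pooled entry was assigned to 45 of the 65 (69.2%), against 63.0% of all genes (12581). Among constitutive genes it was 15 of 22, and among stress-induced genes 4 of 10. Genes with an entry had a median of 2 entries both among chaperone genes and among all genes. The best entry of the 45 had a median rank of 5292 (quartiles 1116 and 13192), against 10069 (quartiles 4242 and 18112) for all genes with an entry. It was 1639 for the 15 constitutive genes and 13487.5 for the 4 stress-induced genes. In the list of replicate 1 the median was 5895 for chaperone genes and 9977 for all genes, and in that of replicate 2 it was 7395 and 10067. The median was lower for chaperone genes in both replicates, with a narrower gap than in the pooled list.

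The best entry ranked in the first 2000 for 14 of the 65 (21.5%), against 8.18% of all genes. These were hsp-1, hsp-25, hsp-3, cct-5, pfd-1, pfd-3, pfd-6, dnj-9, dnj-12, dnj-13, dnj-16, dnj-20, dnj-24 and dnj-29, and 8 of the 22 constitutive and 0 of the 10 stress-induced genes were among them. In the whole pooled list 375 entries had a deposited −log10 q above 2, and among these 14 only that of hsp-1 did. The 14 entries tended to sit close upstream of an annotated start. Of the 14, 11 (78.6%) were both upstream and within 500 bp, against 41.1% of the 1633 best entries of all genes with that rank. Their median distance was 201 bp, against 533 bp. The entries at pfd-1 and dnj-16 were counted as upstream but lay in introns inside those genes, before an internal start. Counting every gene with a start within 1000 bp, 23 of the 65 (35.4%) had an entry of the first 2000, against 7.25% of all genes, and these included 12 of 22 constitutive and 2 of 10 stress-induced genes (hsp-60 and hsp-6).

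**Figure D3:**
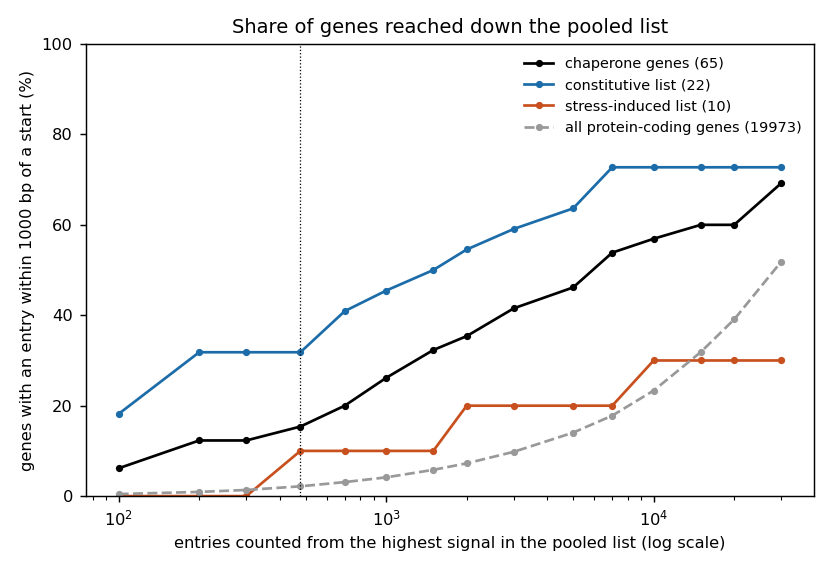
Share of genes with an entry within 1000 bp of a start, in percent, as the pooled list is read from the highest signal down (log scale), for the 65 chaperone genes, the 22 constitutive and 10 stress-induced genes among them, and all protein-coding genes. The dotted line marks the end of the optimal list at 478 entries. At 1000 entries the share was 26.2% of chaperone genes and 45.5% of constitutive genes, against 4.15% of all genes.

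Nearly all optimal peaks overlapped an entry in both replicates, including those near chaperone genes, and replicate 2 placed more of either near its top. The optimal list is the top 478 entries of a list called on both replicates together, thresholded by the authors on the irreproducible discovery rate. The overlap alone is thus no separate result. Not every optimal peak was listed in both replicates or ranked high in both. An entry overlapping by 1 bp or more was listed in both replicates for all 10 peaks within 1000 bp of a chaperone gene, and for 467 of the 478 optimal peaks. Within the first 478 entries of replicate 1 there were 7 of the 10 (70%), against 58.6% of all optimal peaks, and within the first 478 of replicate 2 there were 10 of 10, against 76.4%. Both conditions held for 7 of 10, against 42.9% of all optimal peaks. The exceptions in replicate 1 were cct-7, hsp-110 and hsp-25. The median signal of the 10 was 45.7, against 38.1 for the optimal list. Over the 36 chaperone genes with an entry in both replicates, the Spearman correlation of best ranks between replicates was 0.319, and over 9644 genes it was 0.302. These are descriptions across genes of the same pair of libraries, and neither list orders genes closely like the other.

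**Figure D4:**
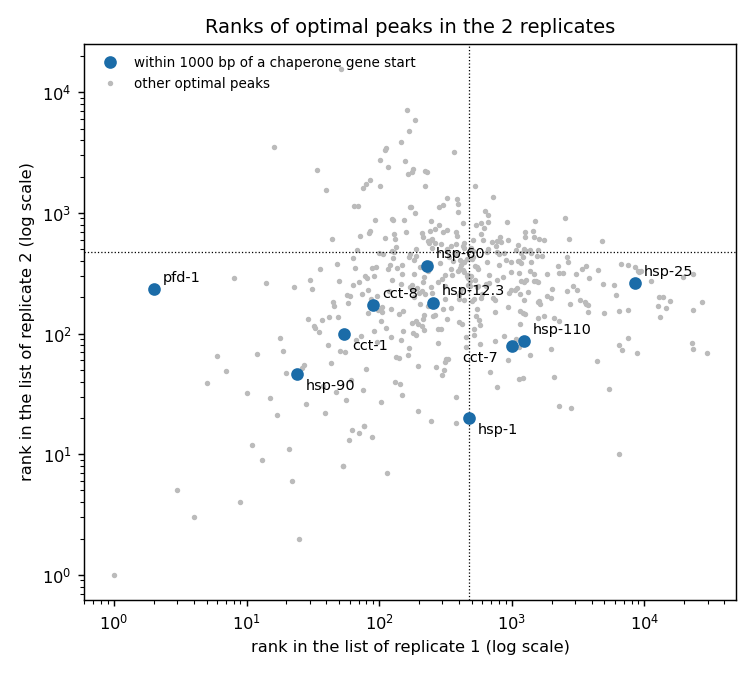
Rank of the overlapping entry in the list of replicate 1 (horizontal) and replicate 2 (vertical), on log scales, for the optimal peaks with an entry in both. Large points are the 10 peaks within 1000 bp of a chaperone gene start, small points the other optimal peaks, and dotted lines mark rank 478. The points for cct-7, hsp-110 and hsp-25 lie to the right of the vertical line, and all 10 lie below the horizontal line.

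A shared feature of these peaks was their place between genes that start back to back. Of the 10, 7 lay between head-to-head starts (pfd-1, hsp-90, cct-1, cct-7, hsp-110, cct-8 and hsp-60), with 420 to 813 bp from start to start. That is 70%, against 29.1% of the 306 optimal peaks within 1000 bp of any start and 18.6% of the whole optimal list. These shares are not a like comparison. A peak between head-to-head starts can count for both genes, so it is more easily picked when peaks are found by gene. At all 7 the partner's start was the nearer one, which is why assignment to 1 gene gave the peak to the partner. Whether such a peak belongs to the chaperone gene, its partner or both cannot be told apart from these lists.

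Chaperone genes often have such partners. By gene start, 30 of the 65 (46.2%) had a divergent neighbour within 1000 bp, against 17.7% of all genes, and this held for 12 of 22 constitutive and 8 of 10 stress-induced genes. The hsp-16 genes among these are partners of each other, hsp-16.2 with hsp-16.41 and each hsp-16.1 gene with an hsp-16.48 gene. Each region between them was thus counted for both genes. Among genes with a divergent neighbour, 6 of 30 chaperone genes (20%) had an optimal peak within 1000 bp, against 5.001% of all such genes. Among genes without one, it was 4 of 35 (11.4%), against 1.56%. The longer hsp-90 transcript places that gene in the second group. The chaperone share was thus the higher one in both arrangements. Of all 433 genes with an optimal peak within 1000 bp, 177 had a divergent neighbour, and 6 of the 10 chaperone genes did. Stress-induced genes with a divergent neighbour had such a peak in 1 of 8.

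Another feature was overlap with non-coding genes. Of the 10 peaks, 7 overlapped an annotated non-coding RNA gene (those at pfd-1, hsp-1, cct-7, hsp-110, cct-8, hsp-12.3 and hsp-25), against 20.5% of the optimal list. Its part in the signal was not tested.

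Heat shock element cores stood at a larger share of these peaks than of other optimal peaks when the window was narrow. Within 100 bp of the summit, on both strands, a core was found at 6 of the 10 peaks (hsp-90, hsp-1, cct-1, hsp-110, cct-8 and hsp-60), as printed above. It was found at 17.6% of the 306 optimal peaks within 1000 bp of any start, at 21.3% of the 89 optimal peaks between head-to-head starts, at 15.9% of all optimal peaks and at 25.3% of all pooled entries. With 50 bp on each side it was 4 of 10, against 7.84% of the 306 and 8.99% of the 89. With 250 bp it was 8 of 10, against 43.5% of the 306 and 56.2% of the 89, so the shares lay closer together.

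The letters common in the optimal list were at few of the 10 peaks, and they were also less common at optimal peaks between head-to-head starts, where 7 of the 10 lie. GAGAGA was found at 2 of the 10 (hsp-1 and hsp-12.3), against 29.2% of the 89 peaks between head-to-head starts, 40.2% of the 306 peaks, 49.4% of all optimal peaks and 12.9% of pooled entries. CGTCTC was found at 1 of the 10 (pfd-1), against 15.7% of the 89, 33.3% of the 306, 36.4% of all optimal peaks and 6.24% of pooled entries. AGAGAC was found at 0 of the 10, against 12.4% of the 89, 32.4% of the 306 and 8.14% of pooled entries. GACGCA was found at 0 of the 10, against 21.3% of the 89, 28.4% of the 306 and 4.67% of pooled entries. In a wider window the counts were no longer low beside the 89, but they stayed below the shares of the 306. With 250 bp on each side, GAGAGA was at 4 of the 10, against 41.6% of the 89 and 56.9% of the 306. CGTCTC was at 3 of the 10, against 21.3% and 42.8%. AGAGAC was then at 3 of the 10, against 20.2% of the 89 and 41.5% of the 306, and GACGCA at 3 of the 10, against 32.6% and 39.9%. GAGAGA and CGTCTC can overlap by their shared letters, AGAGAC can overlap either, and each was counted on its own.

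The ZEB-type E-box CAGGTG was found within 100 bp at 1 of the 10 (hsp-90), against 1.63% of the 306 peaks and 3.91% of pooled entries. Its variant CAGGTA was found at 0 of the 10, against 2.29% and 4.23%. TGACGTG, the core of an element of the unfolded protein response, was found at 0 of the 10, against 2.29% and 1.47%. Mean GC content within 100 bp was 41.9% for the 10, against 43.3% for optimal peaks and 33.1% for pooled entries. A match is a description of the letters in these windows and not a binding site.

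Heat shock element cores also stood in chaperone promoters without a peak. In the 250 bp before to 50 bp after the gene start, 32 of the 65 chaperone genes (49.2%) held a core, against 32.6% of all protein-coding genes. It was 16 of 22 constitutive genes (72.7%) and 8 of 10 stress-induced genes (80%). The hsp-16 genes among the latter stand in head-to-head pairs whose windows overlap, so they are not separate promoters. It was 8 of the 33 genes in neither list (24.2%) and 9 of the 29 dnj- genes (31.0%), both below the share of all genes. Of those with a core, 6 of the 16 constitutive genes and 0 of the 8 stress-induced genes had an optimal peak within 1000 bp, against 2.26% of all genes with a core (147 of 6513). At that share none would be usual among 8 genes, so nothing is read from the 0 of 8. CCT promoters held a core in 7 of 8, and 3 of these 7 had a peak. The promoter window is not the window around the summit, so a core in one need not lie in the other. At cct-7 the promoter held a core but the peak held none within 100 bp of its summit, and at hsp-60 it was the reverse.

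Among 23 co-chaperone and stress-regulator genes outside the 65, 2 had an optimal peak by nearest start (8.70%), against 2.18% of all genes, and 3 within 1000 bp (13.04%), against 2.17% of all genes. Shares equal to those of all genes would give 0.50 genes in both counts. The peak at bag-1, an Hsp70 nucleotide exchange factor, had rank 207 and a signal of 40.2 at 193 bp upstream, with ranks 189 in replicate 1 and 441 in replicate 2. The peak at enpl-1, the Hsp90 of the endoplasmic reticulum, had rank 286 and a signal of 35.8 at 64 bp downstream of the start, with ranks 408 and 222. The peak at ahsa-1, an activator of Hsp90, had rank 210 at 243 bp upstream, but its overlapping entry ranked 22771 in replicate 1 against 84 in replicate 2. Its summit was 119 bp upstream of C01G10.7, which runs the other way, so by nearest start the peak was given to that gene. The gene for the heat shock transcription factor, hsf-1, had no optimal peak within 5000 bp, and its best entry had rank 1695 (signal 19.01) at 1602 bp upstream, and the overlapping entries ranked 8203 in replicate 1 and 13817 in replicate 2.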

How the data were processed

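ZAG-1 binding was measured in 2 biological replicates of whole L1 larvae. Per the labels and release notes, the authors called peaks and background on each replicate and on both pooled, against a control alignment, and thresholded the optimal list on the irreproducible discovery rate. The aligner, caller, versions and threshold were not given in the sources used here. Columns used, as deposited by the authors, were the signal, the −log10 q and the offset of the summit. Lists on ce10 were not used, because no gene annotation of that build was used here.

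Summits (entry start plus offset) were assigned to the nearest protein-coding transcript start within 5000 bp, with Ensembl release 115 models on WBcel235, the same build as ce11. Of 31805 annotated start codons, 99.9% read ATG in the genome used. Entries were ranked by signal. Counts of chaperone genes were set beside the same counts over all 19973 protein-coding genes, with no test, since there is 1 group and the members and lists were chosen with earlier results of these data known. Products are from RefSeq. Motifs were searched within 100 bp of the summit on both strands. The list terms hsp-16.11, hsp-16.49 and hsf-2 matched no symbol.

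The genes named are those with an optimal peak or a best entry in the first 2000, selected hsp- genes, the CCT and prefoldin genes and hsf-1, and others named beside them were chosen after their values were seen. Alternatives were other distances, every gene with a start within reach of the summit, stricter lists, single replicates, and other overlaps and motif windows. Python 3.11.15, numpy 2.4.6 and pandas 2.3.3 were used, and the assignment was tested on simulated data.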

Additional observations from a re-analysis of the deposited data

How the results depend on the processing

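Of 71 recomputed values, 43 stayed within 1.5 times the value reported for a count, or within the replicate spread for the median rank, and 28 moved. Chaperone genes with an optimal peak, 2 by nearest start, were 13 with every gene within 5000 bp counted, 10 within 1000 bp and 7 within 500 bp, and 1 among the upper 239 optimal peaks or among entries with a −log10 q above 2. Without replicate 1 or without replicate 2, the count was between 2 and 4 by nearest start, and between 7 and 11 within 1000 bp. Constitutive genes, 1 by nearest start, were 8, 7 and 7 at those distances, and between 2 and 3 with 1 replicate left out, or between 5 and 7 within 1000 bp. Without replicate 2, cct-7 and hsp-110 were no longer among those within 1000 bp. Stress-induced genes, 0 by nearest start, were 1 within 5000 bp and 1 within 1000 bp, also with either replicate left out. Co-chaperones and regulators, 2 by nearest start, were 4 within 5000 bp and 1 among the upper 239 peaks. Within 1000 bp they were between 3 and 4 with 1 replicate left out.

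The median best rank of 5292 was 2944.5 with every gene within 5000 bp counted and between 5895 and 7395 with 1 replicate left out. Of the nearest-start peaks, 1 was in the first 478 entries of both replicates, 2 overlapped an entry of both lists at any rank, and for the peaks within 1000 bp the count was 7. The 1 peak within 500 bp of a start became 0 within 250 bp, and CGTCTC, at 0 of these peaks, was at 1 with 250 bp on each side. The cause of these shifts was not tested. The distances of 1000 and 500 bp for every gene were chosen after seeing the data. No paired analysis was possible because both replicates belong to 1 group and no result comes from a test. Depth limits what can be said: with no read counts, a gene without an entry was not listed at this depth, which does not show that it was unbound.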
